A study of Sus scrofa with 15 samples.

Results

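The genes described here are the 5 with the largest edgeR log2 fold change between 14 d and 2 d prepartum in sow mammary gland (-2vs-14 time comparison), 5 of the 25322 genes in the count tables. They were selected on that measured fold change. They are alpha-s2-casein (CSN1S2, ENSSSCG00000009263), whey acidic protein (WAP, ENSSSCG00000016731), alpha-lactalbumin (LALBA, ENSSSCG00000024573) and a pair of neighbouring loci on an unplaced scaffold that carry only an Ensembl identifier, ENSSSCG00000022639 and ENSSSCG00000026656. All 5 reached 1 CPM (the count scaled to a common library size) in 3 or more libraries and so were among the 13503 genes tested. Because the -2vs-14 fold changes chose the genes, every change measured from 14 d prepartum, and every change that ends or starts at 2 d prepartum or 1 d postpartum, is given as a description without a test. The smallest of the chosen log2 fold changes was 7.21, and the next gene below it stood at 6.85.

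Messenger RNA was sequenced from mammary tissue of 3 second-parity sows, Danish Landrace × Yorkshire crossbreds that the study picked for the highest colostrum yield. Tissue was taken at 14, 10, 6 and 2 d before parturition and at 1 d after it, which gave 5 groups of 3 libraries, 1 per sow, and 15 libraries in all. Each sow was on a diet of its own, namely alfalfa meal with trioctanoate, sugar beet pulp with palm fatty acid distillate, or alfalfa meal with soybean oil, so an effect of diet cannot be told apart from one of sow. By the gestation day on which the study allotted the diets, they appear to have begun after the 14 d prepartum libraries were taken. If so, the start of the diet and time cannot be told apart in comparisons from 14 d. Libraries of 14 d prepartum served as the baseline. The sample labels do not name the sow, which was taken from the alignment summary of the study by matching total counts. The spread between libraries of a time point is that between these 3 sows.

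Caseins are the phosphoproteins that form the micelles of milk, whereas alpha-lactalbumin and whey acidic protein belong to the soluble whey fraction. Alpha-lactalbumin is also the regulatory subunit of lactose synthase, which it forms with a galactosyltransferase in the Golgi of the secretory cell. Transcription of these genes in the mammary epithelium is driven by prolactin through JAK2 and STAT5 together with glucocorticoid, and progesterone restrains it until shortly before parturition.

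The libraries held 10782343 to 19952918 counts on genes, with a median of 17726719, and the 1 d postpartum libraries were the shallowest at 10782343 to 15744454. CPM levels given below also carry the TMM factor (trimmed mean of M-values) of each library. That factor ran from 0.545 in sow 1 at 1 d postpartum to 1.24 in sow 2 at 14 d prepartum. Luminal epithelium markers (6 of 7 could be linked to an identifier) were present in every library, at a summed 1220 to 2456 CPM. KRT8, a keratin of luminal cells, lay between 168 and 619 CPM. In whole tissue, fewer cells of a type and less RNA in each of them cannot be told apart.

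CSN1S2 lies at chr8:148310617-148326957 on the plus strand (build Sscrofa10.2) and has 19 exons with a joint length of 1093 bases. The name rests on position, because the reference tables do not pair this identifier with a symbol. The nearest linked genes are CSN2 on one side and CSN3 on the other, with CSN1S1 beyond CSN2, and RefSeq places CSN1S2 in the same interval. All 17 internal exons have a length divisible by 3, from 24 to 129 bases, with 5 exons of 24 and 4 of 27 bases. Such short exons in frame are typical of the calcium-sensitive caseins.

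WAP lies at chr18:55190838-55192844 on the plus strand, with 4 exons and 516 exonic bases. Its name rests on position too, since the locus starts 212004 bases beyond ADCY1 and ends 4937 bases before TBRG4, and RefSeq places WAP next to TBRG4. LALBA, which the reference pairs with its identifier, lies at chr5:82539971-82542256 on the plus strand, with 4 exons and 667 exonic bases. The scaffold loci lie on GL893949.2 at 82174 to 83243 (2 exons, 230 exonic bases) and at 84913 to 89441 (3 exons, 253 exonic bases). Both are on the minus strand and 1669 bases apart. Only 1.90% of the tested genes are shorter than 300 exonic bases. Nothing in the files ties the scaffold loci to a milk protein, and their levels below are those of weakly expressed genes.

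Alpha-s2-casein, one of the calcium-sensitive caseins, went from a level inside the bulk of expressed genes to one of the highest in the gland. At 14 d prepartum it was at 58.7, 21.0 and 9.35 CPM in sows 1, 2 and 3, where it ranked between 2527 and 8156 among the 13503 tested genes. It reached 809, 320 and 36.5 CPM at 10 d prepartum. By 6 d prepartum the sows were at 3494, 3560 and 158 CPM. Sow 3 was far behind the others here. At 2 d prepartum the levels were 23135, 47273 and 2587 CPM. At 1 d postpartum they were 219934, 45580 and 68998 CPM, rank 2 or 3 in every library, or 12.0%, 4.03% and 6.00% of the counts. The libraries at 2 d prepartum and at 1 d postpartum all lay above those at 14 d prepartum. This held for all 5 genes, against 15.2% of the tested genes for the -2vs-14 and 19.5% for the +1vs-14 comparison, but the genes were chosen for it. The log2 fold change of CSN1S2 against 14 d prepartum was 3.71 ± 1.33 (SE) at 10 d, 6.34 ± 1.51 at 6 d and 9.68 ± 1.74 at 2 d prepartum, and 11.87 ± 1.88 at 1 d postpartum.

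**Figure D1:**
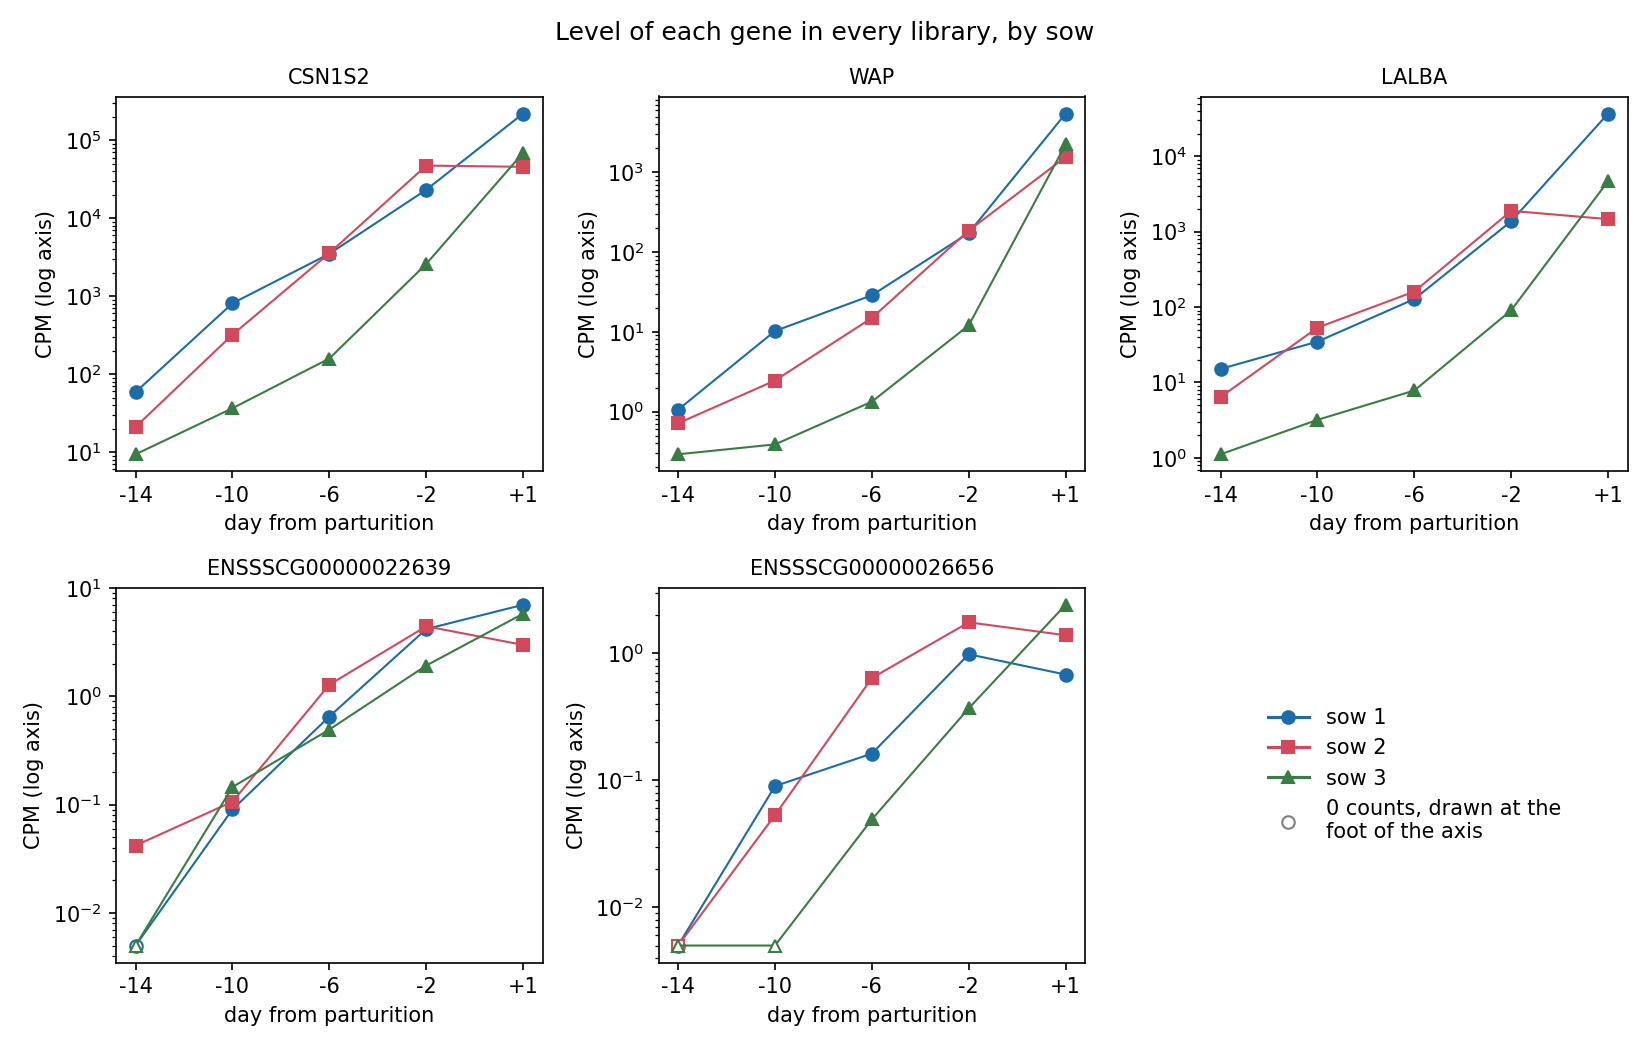
CPM of each gene (log axis) against the day from parturition, 1 line per sow, with open symbols for libraries of 0 counts. Sow 3 is the lowest line for CSN1S2, WAP and LALBA at all 4 prepartum times, and sow 2 is the lowest for them at 1 d postpartum, where its CSN1S2 stood at 45580 CPM.

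The other 3 caseins were already high when CSN1S2 was not. Per exonic length, in RPKM (CPM per kilobase of exon), CSN1S1, the alpha-s1-casein gene, stood at 13198 ± 1269 (SD, n = 3) at 14 d prepartum. The beta-casein gene CSN2 stood at 1949 ± 959 RPKM and the kappa-casein gene CSN3 at 1330 ± 293 RPKM, whereas CSN1S2 stood at 27.2 ± 23.6 RPKM. CSN1S2 thus made up 0.0619% to 0.294% of the summed casein RPKM at 14 d prepartum. Its part was 14.1%, 18.5% and 2.85% in sows 1, 2 and 3 at 2 d prepartum. At 1 d postpartum it was 30.6%, 30.8% and 31.9%. The 3 sows were within 2 percentage points of each other in this part, although their CSN1S2 levels in RPKM differed up to 4.83-fold. At that time the RPKM of CSN1S2 exceeded that of CSN3 in every sow, and that of CSN2 in sows 2 and 3.

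WAP, a whey protein with a 4-disulfide core, had per exonic length the lowest level of the named genes in every prepartum library. It was at 1.05, 0.712 and 0.291 CPM at 14 d prepartum and at 10.22, 2.44 and 0.387 CPM at 10 d prepartum. By 6 d prepartum the sows had 28.7, 14.9 and 1.33 CPM. The levels at 2 d prepartum were 173, 186 and 12.0 CPM, and those at 1 d postpartum 5450, 1557 and 2232 CPM. All 3 sows gained after 2 d prepartum, by 31.5-, 8.38- and 186-fold, and WAP had the largest log2 change of the 5 genes over these days. It was also the only one of the 5 whose postpartum libraries all lay above those at 2 d prepartum, a pattern found in 13.5% of the tested genes. Its log2 fold change was 7.47 ± 1.45 (SE) in -2vs-14, 4.64 ± 1.18 in +1vs-2 and 12.11 ± 1.67 in +1vs-14, the largest of all tested genes in the last of these.

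The ratio of CSN1S2 to WAP was lower again after parturition. Per exonic length CSN1S2 exceeded WAP 13.9- to 26.3-fold at 14 d, 37.3- to 61.8-fold at 10 d, 56.3- to 113-fold at 6 d and 63.1- to 120-fold at 2 d prepartum. At 1 d postpartum the ratio was 13.8 to 19.1. The postpartum ratios lay below all those at 10, 6 and 2 d prepartum and overlapped those at 14 d prepartum. The ratio of CSN1S2 to LALBA had no such common course. It went from 10.24, 15.3 and 17.4 in sows 1, 2 and 3 at 2 d prepartum to 3.63, 18.95 and 8.98 at 1 d postpartum, higher in sow 2 and lower in the others. An exact permutation test of 3 libraries against 3 that ignores the pairing by sow cannot go below a two-sided p of 0.1. A test within sows has fewer arrangements, and neither was run.

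**Figure D2:**
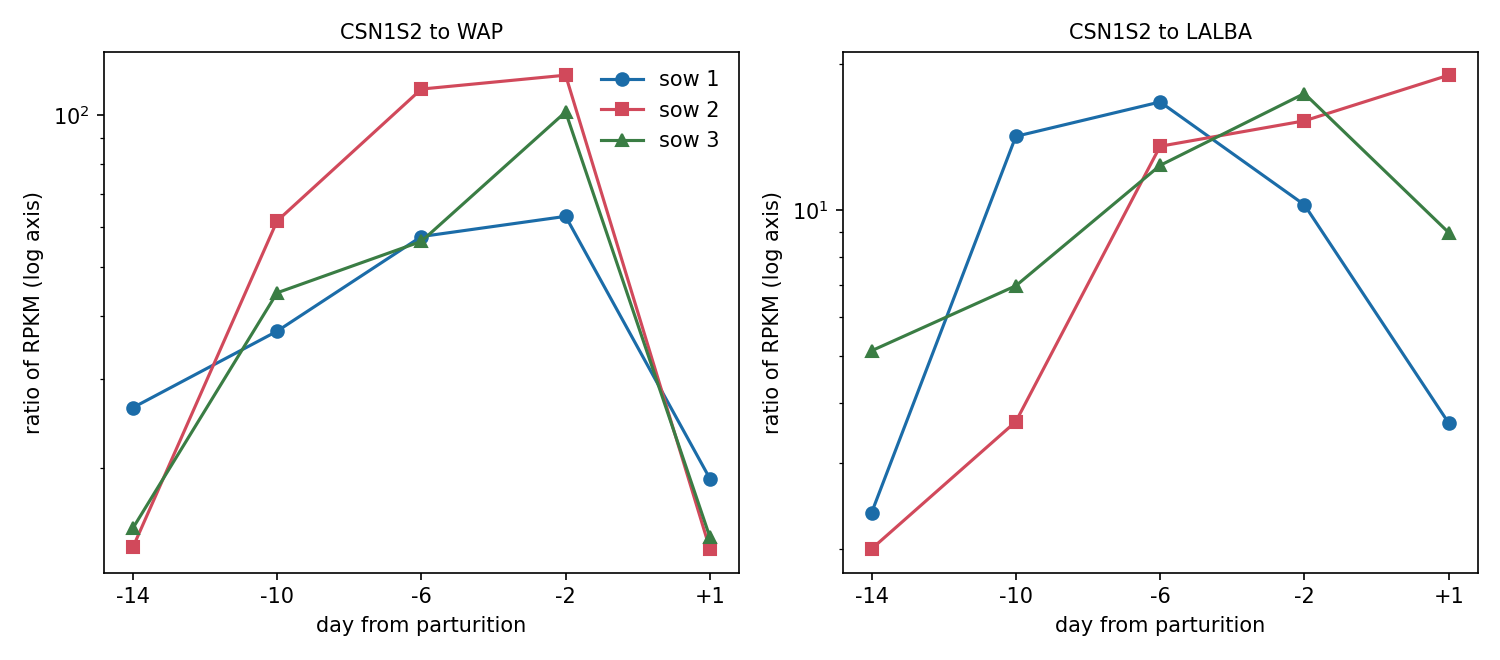
Ratio of CSN1S2 to WAP (left) and of CSN1S2 to LALBA (right) in RPKM, on log axes against the day from parturition, 1 line per sow. The ratio to WAP falls to between 13.8 and 19.1 in all 3 sows at 1 d postpartum, whereas the ratio to LALBA spreads from 3.63 to 18.95.

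LALBA, whose product gives lactose synthase its preference for glucose, was the member in which the sows parted most after parturition. At 14 d prepartum it was at 15.1, 6.41 and 1.11 CPM, and at 10 d prepartum at 34.8, 53.4 and 3.19 CPM. It was at 128, 161 and 7.83 CPM at 6 d prepartum and at 1378, 1890 and 90.9 CPM at 2 d prepartum. Sow 3 was 20.8-fold below sow 2 at the last prepartum time. At 1 d postpartum the levels were 36934, 1467 and 4690 CPM, a 25.2-fold gap between sows 1 and 2. Sow 2 had at 2 d prepartum 128.8% of its own postpartum level, sows 1 and 3 had 3.73% and 1.94%. The log2 fold change of LALBA was 7.21 ± 1.76 (SE) in -2vs-14 and 10.89 ± 2.03 in +1vs-14. In the -10vs-14 comparison it was 2.01 ± 1.42.

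**Figure D3:**
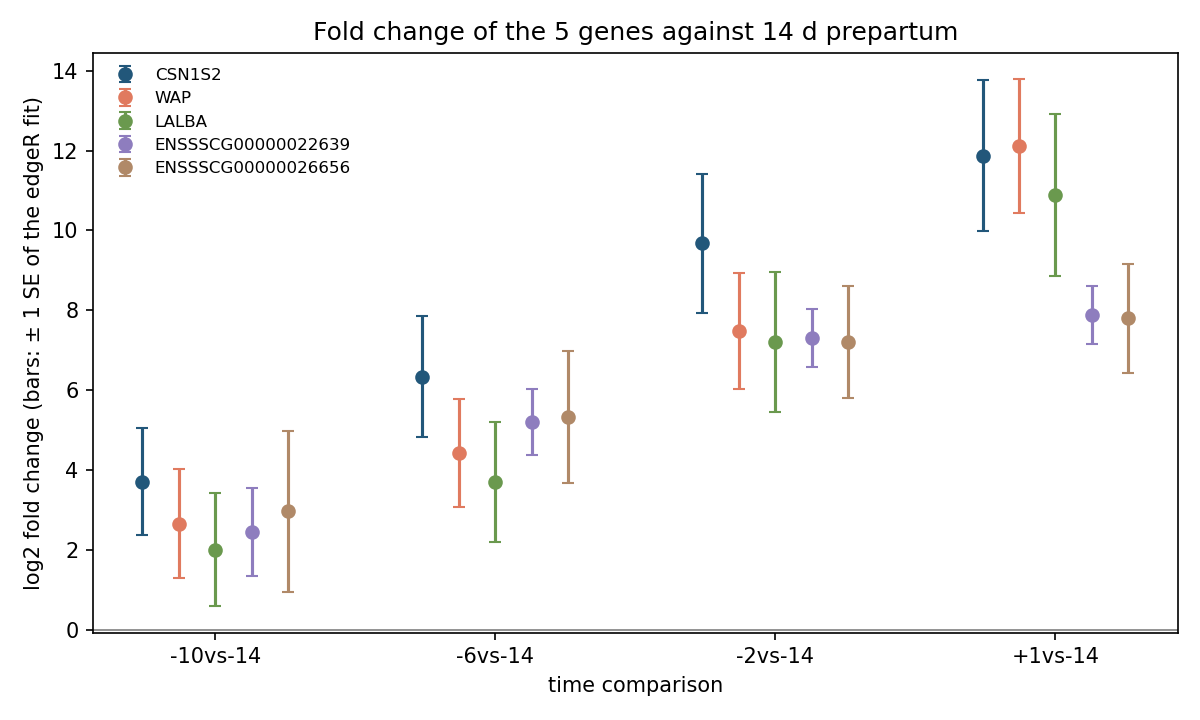
Log2 fold change of the 5 genes against 14 d prepartum from the edgeR fit, with bars of 1 SE to each side, for the 4 time comparisons. All points lie above 0, and the points of -2vs-14 and +1vs-14 stand at 9.68 and 11.87 for CSN1S2, 7.47 and 12.11 for WAP, and 7.21 and 10.89 for LALBA.

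The scaffold loci had log2 fold changes close to those of WAP and LALBA in -2vs-14 (7.31 and 7.21), on low counts, and smaller ones than the named genes in +1vs-14 (7.87 and 7.80). ENSSSCG00000022639 had 0, 1 and 0 counts in sows 1, 2 and 3 at 14 d prepartum and 2, 2 and 3 at 10 d prepartum. It had 12, 24 and 10 counts at 6 d and 72, 73 and 26 counts at 2 d prepartum, and 41, 30 and 79 counts at 1 d postpartum. Its highest level was 6.97 CPM. The summed level at 2 d prepartum was 239 times that at 14 d prepartum, with a 95% counting interval of 42.4 to 9510, since the denominator is 1 count. Intervals and floors of this kind cover counting error only. They do not cover the spread between sows or the choice of the genes on this comparison, and are descriptions.

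ENSSSCG00000026656 had no count in the 3 libraries at 14 d prepartum, and 2, 1 and 0 counts at 10 d prepartum. The counts were 3, 12 and 1 at 6 d and 17, 29 and 5 at 2 d prepartum, and 4, 14 and 33 at 1 d postpartum. Its summed level at 2 d prepartum was 23.8 times, and at 1 d postpartum 38.0 times, a 14 d baseline set to a floor of 3 counts over the group. Only the baseline is bounded in this way, since the later counts were taken as observed. Its highest level was 2.41 CPM. In +1vs-2 the log2 fold change was 0.56 ± 0.41 (SE) for ENSSSCG00000022639 and 0.59 ± 0.70 for ENSSSCG00000026656. Expressed relative to the keratins KRT8 and KRT18 the sign of that difference turned for both, to -0.50 and -0.46. These keratins themselves had higher means at 1 d postpartum than at 2 d prepartum, 433 and 194 CPM for KRT8 and 86.4 and 32.3 CPM for KRT18. So had the luminal marker CLDN4 (397 and 255 CPM). The means of the luminal markers EPCAM (1039 and 895 CPM), CDH1 (116 and 104 CPM) and ESRP1 (152 and 167 CPM) lay closer together.

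ENSSSCG00000020902, another locus of the scaffold, starts 735 bases beyond ENSSSCG00000026656 on the same strand and was chosen after its values were seen. Its counts summed over the sows were 2, 7, 22, 69 and 92 at the 5 times in order, beside 1, 7, 46, 171 and 150 for ENSSSCG00000022639 and 0, 3, 16, 51 and 51 for ENSSSCG00000026656. The remaining gene of the scaffold had a highest count of 2. The files do not show whether the neighbouring loci are parts of a single transcript.

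The change between 10 d and 6 d prepartum compares none of the libraries that chose the genes (the fit shares its estimate of the spread over all 15), and it is the only one tested for them. None of the 5 was called in -6vs-10 by the edgeR quasi-likelihood test with Benjamini-Hochberg adjustment over all genes, as none of the 13503 tested genes was (0.00% called). At an unadjusted p under 0.05, 953 genes passed, or 7.06%, and of the members ENSSSCG00000022639. DESeq2 called 28 genes, a block for the sow in edgeR gave 1 and limma-voom 0, none of them a member. The log2 difference was 2.75 for ENSSSCG00000022639 (95% interval 1.42 to 4.08, edgeR adjusted p = 0.487). It was 2.63 for CSN1S2 (interval -0.10 to 5.36, edgeR adjusted p = 0.700) and 2.37 for ENSSSCG00000026656 (interval -0.18 to 4.92, edgeR adjusted p = 0.711). It was 1.76 for WAP (interval -0.64 to 4.17, edgeR adjusted p = 0.770) and 1.70 for LALBA (interval -1.27 to 4.66, edgeR adjusted p = 0.815).

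The scaffold loci entered the test through later libraries in which they were higher. ENSSSCG00000026656 reached the minimum of 1 CPM in 3 libraries, 1 at 2 d prepartum and 2 at 1 d postpartum, and ENSSSCG00000022639 in all libraries of these times. Their differences between 10 d and 6 d prepartum rest on the few counts given above. Within each sow, all 5 genes were higher at 6 d than at 10 d prepartum in 3 of 3 sows, as were 22.9% of the tested genes. For ENSSSCG00000026656 in sow 3 this was a step from 0 to 1 count. The 3 libraries at 6 d lay above all those at 10 d prepartum only for ENSSSCG00000022639, a pattern found in 9.79% of the tested genes. CSN1S2 was 4.32-, 11.1- and 4.34-fold higher at 6 d than at 10 d prepartum in sows 1, 2 and 3, WAP 2.80-, 6.10- and 3.43-fold, and LALBA 3.67-, 3.01- and 2.45-fold.

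Onset was taken as the first time at which a gene reached 4 times the same sow's 14 d level on at least 10 counts. By this measure CSN1S2 started at 10 d prepartum in sows 1 and 2 and at 6 d prepartum in sow 3, where the 3.90-fold step at 10 d fell just short. WAP started at 10 d prepartum in sow 1 and at 6 d prepartum in the others. LALBA started at 10 d prepartum in sow 2 and at 6 d prepartum in the others. ENSSSCG00000022639 started at 6 d prepartum in all 3 sows. ENSSSCG00000026656 started at 2 d prepartum, 6 d prepartum and 1 d postpartum in sows 1, 2 and 3. With so few counts at 14 d prepartum, the onset of either scaffold locus mostly shows when 10 counts were reached. At 10 d prepartum only ENSSSCG00000022639 had its 3 libraries above those of 14 d prepartum, against 5.05% of the tested genes. This rests on 2, 2 and 3 counts against 0, 1 and 0. At 6 d prepartum this held for 4 of the 5, LALBA being the exception, against 9.95%.

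The named genes shared the sow with the lowest level at each time, while the order of the other two differed between genes at 10 d and 6 d prepartum. Sow 3 was lowest for CSN1S2, WAP and LALBA at each prepartum time, and sow 2 was lowest for these at 1 d postpartum. The gap between the highest and the lowest sow for CSN1S2 was 6.28-fold at 14 d, 22.2-fold at 10 d, 22.5-fold at 6 d and 18.3-fold at 2 d prepartum, and 4.83-fold at 1 d postpartum. In CPM, CSN1S2 in sow 2 had reached 104% of its own postpartum level at 2 d prepartum, whereas sows 1 and 3 had reached 10.5% and 3.75%. WAP stood at 3.18%, 11.9% and 0.538% of the postpartum level at that time in sows 1, 2 and 3. Sow 2 was therefore the closest to its postpartum level for all 3 named genes, and it alone had less CSN1S2 and LALBA postpartum than at 2 d prepartum.

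After the mean of each time point was subtracted from log2 CPM, the named genes still moved together over the 15 libraries, with r = 0.971 for CSN1S2 and WAP, 0.940 for CSN1S2 and LALBA, and 0.890 for WAP and LALBA. Pairs that include a scaffold locus had r between 0.443 and 0.658. These are descriptions, since the libraries share sows, depth and scaling.

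Markers of other cell types also differed between libraries. The summed level of 6 linked fibroblast markers ranged from 3072 to 6020 CPM at 14 d, 4067 to 5013 CPM at 10 d, 2971 to 4958 CPM at 6 d and 2990 to 3397 CPM at 2 d prepartum, and from 1735 to 3018 CPM at 1 d postpartum, and sow 3 was the highest at each of the 5 times. Luminal markers summed to 1388 to 1671 CPM at 14 d and 1410 to 1941 CPM at 2 d prepartum, and to 2028 to 2456 CPM at 1 d postpartum. Adipocyte markers (3 of 7 linked) were at most 14.5 CPM, the 4 linked basal markers lay between 181 and 620 CPM, and leukocyte markers between 52.2 and 91.5 CPM. Their part in the changes of the 5 genes was not tested. KRT8 and KRT18 had lower means at 2 d than at 14 d prepartum, 194 and 374 CPM for KRT8 and 32.3 and 71.9 CPM for KRT18. CDH1 was also lower (104 and 115 CPM), while EPCAM (895 and 591 CPM), CLDN4 (255 and 186 CPM) and ESRP1 (167 and 152 CPM) were higher. Ratios to the 2 keratins thus depend on that choice of markers. Relative to KRT8 and KRT18, the increase of CSN1S2 was 10.27 in -2vs-14 and 11.83 in +1vs-14 on the log2 scale. That of WAP was 7.84 and 11.94, and that of LALBA 7.99 and 10.26. Without the division by keratins, the differences in mean log2 level were 9.29 and 11.93 for CSN1S2, 6.86 and 12.05 for WAP, and 7.01 and 10.37 for LALBA. These plain differences are not the edgeR fold changes given above.

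RNA quality moved with time as well. The RNA integrity number that the study recorded for each library was higher at 2 d prepartum and 1 d postpartum than at 14 d prepartum in all 3 sows. With it as a covariate the log2 fold change of CSN1S2 became 4.96 in -2vs-14 and 5.91 in +1vs-14, that of WAP 3.32 and 6.92, and that of LALBA 2.62 and 4.89, while ENSSSCG00000022639 had 8.20 and 8.90. In -10vs-14 CSN1S2 went from 3.71 to 0.55, and the sign turned for WAP (-0.30) and LALBA (-0.55). In -6vs-14 CSN1S2 went from 6.34 to 2.80, WAP from 4.42 to 1.29 and LALBA from 3.71 to 0.27. The onset times above carry no such adjustment. Time and RNA integrity could be told apart only in part in these libraries.

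The 5 genes together held 0.00448% ± 0.00376 (SD, n = 3) of all counts at 14 d prepartum. The share was 0.0481% ± 0.0473 at 10 d, 0.261% ± 0.210 at 6 d and 2.19% ± 1.91 at 2 d prepartum. It was 14.3%, 4.30% and 6.60% in sows 1, 2 and 3 at 1 d postpartum, a mean of 8.40% ± 5.24. CSN1S2 supplied 74.6% to 96.1% of these counts in each library. The other 3 caseins together held 2.15% ± 0.272 at 14 d prepartum and 15.3% ± 9.16 at 1 d postpartum. WAP was at most 3.20% of the counts of the 5 genes. LALBA made up 20.2%, 22.8% and 10.4% of them in sows 1, 2 and 3 at 14 d prepartum, and 14.1%, 3.02% and 6.18% at 1 d postpartum.

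**Figure D4:**
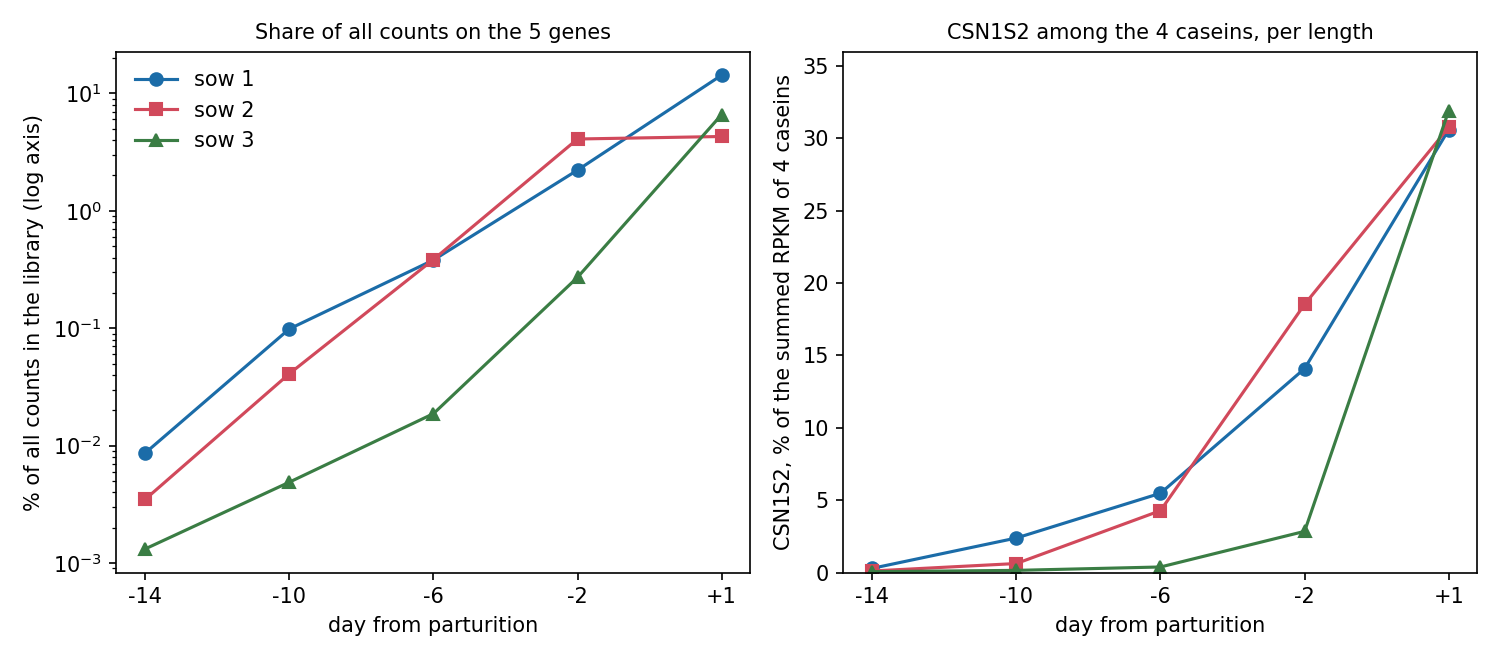
Left, share of all counts of a library on the 5 genes (%, log axis). Right, CSN1S2 as % of the summed RPKM of CSN1S1, CSN1S2, CSN2 and CSN3, both against the day from parturition with 1 line per sow. The lines on the right meet between 30.6% and 31.9% at 1 d postpartum.

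The genes most like each member over the 15 libraries were found by Pearson's r of log2 CPM among the other tested genes. For CSN1S2 they were ENSSSCG00000000629 (r = 0.991) and ENSSSCG00000000628 (r = 0.987), neighbours at chr5:63816468-63819555 and chr5:63803464-63806127, and BTN1A1 (r = 0.986), which encodes the butyrophilin of the milk fat globule membrane. LALBA had the same 3 nearest genes, at r = 0.985, 0.980 and 0.979. BTN1A1 itself went from 1.57 ± 1.58 CPM (SD, n = 3) at 14 d to 107 ± 66.8 CPM at 2 d prepartum. For WAP the nearest gene was FOLR2, a folate receptor gene, at r = 0.985, which went from 16.2 ± 3.69 CPM at 14 d prepartum to 181 ± 39.9 CPM at 1 d postpartum. For ENSSSCG00000022639 the nearest named genes were SLC34A2, a phosphate transporter gene (r = 0.956), NEU1, a lysosomal sialidase gene (r = 0.952), and CSN3 (r = 0.947). The 3 unnamed genes ahead of SLC34A2 lie close together on chr11, between 76974429 and 77012680. For ENSSSCG00000026656 the nearest gene was ENSSSCG00000023000 (r = 0.965), also on chr11, at 77165449 to 77214261. Next were ENSSSCG00000000606 on chr5 (r = 0.953) and STARD8 (r = 0.950), the nearest named gene. The libraries share the time course, and a gene with a steady course over time has a high r with others of that kind.

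Other genes of milk synthesis were taken from 3 lists of 79 genes, which included CSN1S2, WAP and LALBA. The lists were drawn up with earlier results of these data known, and hold leading genes of the study such as LBP, CP, BTN1A1 and CSN2. A share above that of all genes is therefore partly built in. Of the 79, 54 could be linked to an identifier through the reference, LALBA among them, and 51 remained once genes that were not tested and LALBA were left out. In -2vs-14 the edgeR test called 8 of them higher and 3 lower, 21.6% of the 51 against 2.90% of all genes. In +1vs-14 it called 22 higher and 7 lower, 56.9% against 33.3%. The median log2 fold change of the 51 was 0.29 in -2vs-14 and 0.36 in +1vs-14, beside -0.01 and 0.02 over all genes. In -6vs-10 it called none of the 51.

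Milk protein and fat globule genes held most of the early calls, 7 higher and 1 lower of 17 in -2vs-14 (47.1%, against 2.90% of all genes). The 3 other caseins rose, by 2.04 ± 0.37 (SE) for CSN1S1, 4.95 ± 0.90 for CSN2 and 3.83 ± 0.60 for CSN3 on the log2 scale, all less than CSN1S2. In +1vs-14, 13 rose and 1 fell (82.4%, against 33.3% of all genes). The largest were LBP, the lipopolysaccharide binding protein (8.85 ± 0.80, edgeR adjusted p = 1.1e-05), the ferroxidase gene CP (8.77 ± 1.28, edgeR adjusted p = 0.00027) and the lactoperoxidase gene LPO (8.27 ± 1.22, edgeR adjusted p = 0.000289). All remained below WAP, CSN1S2 and LALBA.

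Lactose synthesis genes work with LALBA. B4GALT1, its catalytic partner, could not be linked to an identifier and was not analysed here. Of 14 tested, SLC35A2, the UDP-galactose carrier of the Golgi, rose by 1.05 ± 0.22 and the hexokinase gene HK1 fell by 0.56 on the log2 scale in -2vs-14. These 2 calls were 14.3% of the list, against 2.90% of all genes. In +1vs-14, 4 rose and 1 fell, 35.7% of the list and close to the 33.3% of all genes. The median log2 fold change of the list was -0.04 in +1vs-14. Hexokinase 2 (HK2) rose by 2.47 ± 0.45 (edgeR adjusted p = 0.00106) and UGP2, which makes UDP-glucose, by 1.29 ± 0.34 (edgeR adjusted p = 0.0106). The sodium-glucose cotransporter gene SLC5A1 was lower at -1.48 ± 0.47 (edgeR adjusted p = 0.0276). That call was lost without replicate 7 of 14 d prepartum (edgeR adjusted p = 0.0745), or replicate 40 (0.0606) or 43 (0.0958) of 1 d postpartum. The call on UGP2 was lost without TMM (edgeR adjusted p = 0.0918).

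Prolactin and lactogenic signalling genes were the list with the fewest early calls, 0 higher and 1 lower (ID2) of 20 in -2vs-14. That was 5% of the list, against 2.90% of all genes. In +1vs-14, 5 rose and 5 fell (50%, against 33.3% of all genes). IGFBP5, an IGF-binding protein gene, rose by 2.31 ± 0.49 (edgeR adjusted p = 0.00287) and the transcription factor gene STAT3 by 1.95 ± 0.20 (edgeR adjusted p = 2.95e-05), while TFAP2C, of the AP-2 transcription factors, was lower at -2.19 ± 0.25 (edgeR adjusted p = 5.99e-05). The prolactin receptor gene PRLR had 0.17 ± 0.43 in -2vs-14 and -1.15 ± 0.46 in +1vs-14 (edgeR adjusted p = 0.859 and 0.0715). STAT5A, which transmits the prolactin signal, had 0.08 ± 0.12 in -2vs-14 and was lower in +1vs-14 at -0.62 ± 0.12. JAK2 went the other way and was called higher in +1vs-14 at 0.52 ± 0.13 (edgeR adjusted p = 0.0088). STAT5B was not called there, at -0.29 ± 0.16 (edgeR adjusted p = 0.196). The genes of this pathway thus had no common direction.

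The list counts leaned on single libraries, and so did the counts over all tested genes. In -2vs-14, 11 calls became 7, 3 and 3 without replicates 1, 4 and 7 of 14 d prepartum, 7 and 3 without replicates 28 and 31 of 2 d prepartum, and 18 without replicate 37 of 1 d postpartum. Over all genes, 391 calls became 128, 37 and 78, then 93 and 61, and 1458 without the same libraries. With the sow as a block there were 19 list calls (12 higher, 7 lower), and 1270 over all genes. With RNA integrity as a covariate, the list had 0 calls in -2vs-14 and 2 in +1vs-14. All genes then had 0 and 76, the latter against 4491 without the covariate. Of the 9 genes named for their size in +1vs-14, only LBP kept its call with that covariate. Without the libraries of sow 3, IGFBP5 (edgeR adjusted p = 0.0593) and SLC5A1 (0.282) lost theirs. Without TMM the median of all genes moved to -0.42 (-2vs-14) and -0.64 (+1vs-14), and the split in +1vs-14 became 15 higher and 19 lower. The direction of change of the 5 genes in -2vs-14 and +1vs-14 did not turn with that scaling.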

How the data were processed

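Reads of 101 cycles from poly(A)-selected, stranded libraries were aligned by the authors with STAR 2.5.1b to Sscrofa10.2 and counted on exons with featureCounts (Subread 1.5.0, strand setting 2, Ensembl release 86 per the file headers). The deposited values are raw counts per gene and library, not normalized. Gene names came from the reference table for 11804 identifiers. CSN1S2 and WAP were named from position, and a join to the study's list of leading genes under its own model gave 1 identifier for each. Labels gave the time point, but the sow was joined from the study's alignment summary by exact total count. The members and gene lists were chosen with earlier results of these data known.

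Genes at 1 CPM or more in 3 or more libraries were tested with edgeR 4.0.16 (TMM, glmQLFit, glmQLFTest, R 4.3.3) with time as the factor over all 15 libraries and an adjusted p of 0.05 or less. SE is the log2 fold change divided by the root of F. Log2 CPM used a prior count of 2, and RPKM the exonic length. Genes named in the text are the members, the 3 called genes with the largest change in +1vs-14 of each list, the 3 genes most like each member (at most 2 by identifier) and the nearest linked genes. The other caseins, SLC35A2, HK1, ID2, PRLR, STAT5A, STAT5B and JAK2 were named after their values were seen. Same-sow libraries deviated together in 30 of 30 pairs (mean r = 0.396, lowest 0.103), so the sow was also fitted as a block. Alternatives were DESeq2 1.42.0, limma 3.58.1 (voom, sow random), other scalings and filters, the RNA integrity number, the libraries of 2 time points alone and each library left out. The ratio to keratins and the omission of sow 3 were chosen after seeing the data. Scripts were tested on simulated data.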

Additional observations from a re-analysis of the deposited data

How the results depend on the processing

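In -6vs-10, no member was called under any of the 25 alternatives run, and the log2 change of each stayed above 0. The lowest adjusted p of a member was 0.0512 (ENSSSCG00000022639, DESeq2), and its adjusted p ranged up to 1.00 over the alternatives. The number of genes called in -6vs-10 went from 0 to 28 with DESeq2 and to 1 with the sow as a replicate block, and was 0 whichever library was left out. The list calls in -2vs-14 went from 11 to 19 with the sow as a replicate block, to 0 with the RNA integrity number and to 2 without the libraries of sow 3, and leaving out single libraries gave 3 to 18. Over all tested genes, the -2vs-14 calls went from 391 to 1270, 0 and 56 in the same 3 settings, and to between 37 and 1458 without single libraries. The list calls in +1vs-14 went from 29 to 2 with the RNA integrity number, and leaving out single libraries gave 24 to 30. Over all genes that covariate took the +1vs-14 calls from 4491 to 76. The sow block changed no other call on a member or list count by more than 1.5 times. The cause of these differences was not tested. Among the described fold changes, the sign turned in WAP (-0.30) and LALBA (-0.55) in -10vs-14 with the RNA integrity number, and in ENSSSCG00000022639 (-0.50) and ENSSSCG00000026656 (-0.46) in +1vs-2 relative to keratins. Leaving out a library moved the mean share of counts on the members between 0.00240% and 0.00606% at 14 d, 0.0229% and 0.0697% at 10 d, 0.200% and 0.383% at 6 d, and 1.25% and 3.16% at 2 d prepartum, and between 5.45% and 10.5% at 1 d postpartum. Taking only tested genes as the denominator gave shares of 0.00449% to 8.41%. At 14 d prepartum the scaffold loci rest on 0 or 1 count per library, so their fitted fold changes depend on the prior count.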
